A study of Mus musculus with 17 samples.

Results

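A set of genes for the uptake of dying cells by macrophages was followed in sorted macrophages of the mouse synovium, the membrane that lines joints. They were chosen by symbol as 9 of the 22859 genes in the joint count table, over its 6 groups. Axl and Mertk encode receptors, Gas6, Pros1 and Mfge8 encode bridging ligands, and Stab1, Itgav, Lrp1 and Cd36 encode scavenger or integrin receptors. All 9 passed the filter on low counts, which left 15272 genes to test.

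Clearance of apoptotic cells begins with recognition of phosphatidylserine, a lipid that healthy cells keep on the inner leaflet of the membrane. Some receptors bind it directly, as stabilin-1 does. The receptor tyrosine kinases AXL and MERTK instead need a ligand whose vitamin K-dependent domain binds the lipid. GAS6 serves both receptors, and protein S serves MERTK. MFG-E8 bridges the lipid to αv integrins in the same manner, LRP1 acts with surface calreticulin, and CD36 binds oxidized lipids and thrombospondin.

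The libraries were made from bulk RNA of 3 macrophage subsets of adult mice labelled Fcgr2b-KO, which lack the inhibitory Fc receptor FcγRIIb; every group, the controls included, carried this genotype. LYVE1+CX3CR1+ macrophages (labelled Lyve1), MHCII+CD11c- macrophages (labelled IAIE) and MHCII+CD11c+ macrophages (labelled CD11c) were sorted after collagenase digestion. Control mice, titled healthy, gave 3 libraries for each subset, and mice given ovalbumin bound by rabbit antibody as immune complexes (IC) into a vein 8 h earlier gave 3, 3 and 2 libraries. The labels do not say how many animals stand behind a library, so p-values measure the spread between libraries. In these sorted bulk samples, fewer cells of a type and less RNA per cell cannot be told apart. The subsets are called LYVE1+, CD11c- and CD11c+ from here on.

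Libraries held 2301913 to 7248939 counts, and at equal depth the LYVE1+ libraries after IC detected 11547 to 13842 genes, against 13817 to 17679 in the other groups. Fcgr2b was counted in every library at 69.3 to 248 CPM (counts scaled to a common library total), and counts per gene do not tell which part of the gene was read. The 9 macrophage markers summed to 9630 to 15500 CPM in every library. Itgax, the CD11c gene, lay at 275 to 443 CPM in the CD11c+ groups and at most at 16 CPM elsewhere. Lyve1 in CD11c- macrophages after IC, at 1450 to 2460 CPM, overlapped the LYVE1+ controls at 1730 to 2340 CPM. Within each condition these subsets did not overlap, since CD11c- controls were at 695 to 1130 CPM and LYVE1+ macrophages after IC at 3270 to 4120 CPM. Libraries 2 of CD11c+ control, 2 of CD11c- control and 1 of CD11c- after IC stood apart from the others of their groups in Vsig4, a complement receptor of lining macrophages, at 81.2, 306 and 541 CPM. The other libraries of those groups held 0 and 1.06, 22.4 and 29, and 28.3 and 144 CPM; the value of 0 allows up to 1.18 unscaled CPM by counting error. Lyve1 was also at 382 CPM in the first of these libraries, against 25.3 and 29.8 CPM in the other CD11c+ controls. Values without 1 or all of these libraries are given where they changed a call or a size.

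The stretches before the start sites of Gas6, Stab1 and Mertk are shown because these 3 members had large differences between subsets and moved together across the libraries. Each is the 250 bases upstream of the RefSeq start on GRCm38.p6, 5′ to 3′ on the strand of the gene, with the MAF recognition core TGCTGA (or TCAGCA on the other strand) in capitals.
Gas6 (chr8:13494536-13494785, minus strand): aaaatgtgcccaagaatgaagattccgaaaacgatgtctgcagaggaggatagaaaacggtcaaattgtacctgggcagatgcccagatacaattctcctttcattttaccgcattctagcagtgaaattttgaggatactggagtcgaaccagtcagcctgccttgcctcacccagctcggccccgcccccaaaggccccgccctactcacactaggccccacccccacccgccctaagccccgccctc
Stab1 (chr14:31168642-31168891, minus strand): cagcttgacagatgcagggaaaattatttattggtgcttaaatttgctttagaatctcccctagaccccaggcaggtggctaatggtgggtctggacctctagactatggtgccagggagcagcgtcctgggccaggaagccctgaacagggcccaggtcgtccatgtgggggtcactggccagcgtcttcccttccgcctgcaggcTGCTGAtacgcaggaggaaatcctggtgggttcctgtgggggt
Mertk (chr2:128698665-128698914, plus strand): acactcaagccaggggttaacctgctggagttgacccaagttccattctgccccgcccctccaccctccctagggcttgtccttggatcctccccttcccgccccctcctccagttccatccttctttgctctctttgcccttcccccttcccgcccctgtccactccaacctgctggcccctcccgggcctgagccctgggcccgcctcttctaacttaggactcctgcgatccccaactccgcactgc
Among the 9 members, the core was found in Stab1 and in Cd36, and 16.1% of 32851 promoters of the same length held it. The AP-1 site TGACTCA (or TGAGTCA) lay in none of the 9 stretches, and 4.46% of all promoters held it. These matches describe the letters in the windows.

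Of the receptor pair, Mertk differed more between subsets of control mice. MERTK is a tyrosine kinase receptor for GAS6 and protein S that resident macrophages carry; its gene (ENSMUSG00000014361.5) lies on GRCm38 at chr2:128698956-128802894. Mertk was at 210, 237 and 227 CPM in LYVE1+ control libraries, at 123, 140 and 159 CPM in CD11c- libraries and at 15.5, 55.5 and 19.7 CPM in CD11c+ libraries. The 3 subsets did not overlap, and library 2 was the highest of the CD11c+ controls. Mertk was 7.33-fold higher in LYVE1+ than in CD11c+ macrophages (log2 fold change 2.87 ± 0.35 SE, edgeR quasi-likelihood adjusted p = 1.65e-05). It was lower in CD11c+ than in CD11c- macrophages (-2.20 ± 0.35, adjusted p = 0.000439). Without CD11c+ control library 2, these log2 differences were 3.68 and -3.01. The difference of 0.68 ± 0.33 between LYVE1+ and CD11c- macrophages did not pass the test (adjusted p = 0.499; 95% interval -0.05 to 1.41).

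Axl had the opposite order of mean levels in control mice. AXL, the other receptor of the pair measured here, is often induced in inflamed tissue; its gene (ENSMUSG00000002602.16) lies at chr7:25757273-25788705. Axl was at 105, 98.4 and 108 CPM in LYVE1+ macrophages, at 120, 153 and 127 CPM in CD11c- macrophages and at 152, 192 and 137 CPM in CD11c+ macrophages. The LYVE1+ libraries lay below those of both other subsets, which overlapped each other. Axl was lower in LYVE1+ than in CD11c+ macrophages (log2 fold change -0.63 ± 0.20, adjusted p = 0.0298), but not without CD11c+ control library 2 (-0.48 ± 0.21, adjusted p = 0.131). Its call also ended without any 1 of the 3 LYVE1+ control libraries (adjusted p = 0.0531 to 0.099).

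Per kilobase of exon, the balance of the receptor pair turned between subsets. Mertk stood at 2.33 to 2.80 times the level of Axl in the LYVE1+ control libraries, at 1.06 to 1.45 times in CD11c- libraries and at 0.119 to 0.335 times in CD11c+ libraries. After IC the ratio was 1.44 to 3.52, 0.824 to 1.07 and 0.241 to 0.327 in the same order. Thus the highest ratio of any CD11c+ library was under the lowest of the other subsets in either condition.

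**Figure D1:**
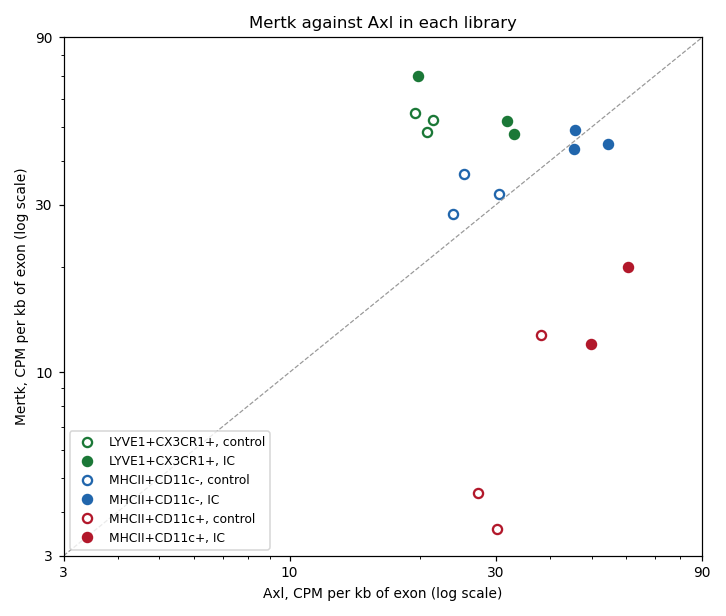
Mertk (vertical axis) against Axl (horizontal axis) in CPM per kb of exon, both on log scales, 1 point per library, coloured by subset, open for control and filled for IC; the dashed line marks equal levels. The CD11c+ libraries lie below the line, at ratios of 0.119 to 0.335, and the LYVE1+ libraries lie above it, at 1.44 to 3.52.

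Gas6 was lower in CD11c+ macrophages than in either other subset. GAS6 activates AXL and MERTK; its gene (ENSMUSG00000031451.6) lies at chr8:13465374-13494490. Gas6 was at 811, 658 and 930 CPM in LYVE1+ control libraries, at 952, 499 and 808 CPM in CD11c- libraries and at 48.1, 97.9 and 49.9 CPM in CD11c+ libraries. The first 2 subsets overlapped, whereas every CD11c+ library lay below them. Gas6 was 12.2-fold higher in LYVE1+ than in CD11c+ macrophages (log2 fold change 3.61 ± 0.33, adjusted p = 6.74e-07) and 11.5-fold higher in CD11c- than in CD11c+ macrophages (adjusted p = 3e-06). Without CD11c+ control library 2, the log2 fold changes were 4.03 ± 0.32 (LYVE1+ against CD11c+, adjusted p = 1.78e-08) and -3.94 ± 0.32 (CD11c+ against CD11c-, adjusted p = 5.77e-08). Between LYVE1+ and CD11c- macrophages the log2 difference was 0.09 ± 0.30 (95% interval -0.57 to 0.75, adjusted p = 0.992).

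Pros1 followed the same order of subsets with smaller differences. It encodes protein S, a ligand of MERTK and an anticoagulant of plasma. Its gene (ENSMUSG00000022912.8) lies at chr16:62854307-62929346. Pros1 was at 254, 416 and 316 CPM in LYVE1+, at 260, 177 and 246 CPM in CD11c- and at 124, 127 and 149 CPM in CD11c+ control libraries. The CD11c+ libraries again lay below the rest. The log2 fold change of LYVE1+ against CD11c+ macrophages was 1.30 ± 0.19 (adjusted p = 2.77e-05). That of CD11c+ against CD11c- macrophages was -0.77 ± 0.19 (adjusted p = 0.00961), and this call ended without CD11c- control library 1 or 3 (adjusted p = 0.0899 and 0.0618). Per kilobase, Gas6 stood at 2.54 to 5.88 times the level of Pros1 in the control libraries of the other subsets and at 0.538 to 1.24 times in the CD11c+ control libraries.

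Mfge8, which links phosphatidylserine to αv integrins, was the lowest of the 9 members per kilobase in every group. Its gene (ENSMUSG00000030605.15) lies at chr7:79133768-79149060. It was at 31.8, 30.5 and 42.6 CPM in LYVE1+, at 15.1, 22.6 and 6.35 CPM in CD11c- and at 5.96, 10.8 and 1.51 CPM in CD11c+ control libraries. The LYVE1+ libraries lay above the other subsets, which overlapped. The lowest of these values stands on 4 counts, so the low groups are imprecise. Mfge8 was 5.50-fold higher in LYVE1+ than in CD11c+ macrophages (log2 fold change 2.46 ± 0.49, adjusted p = 0.000919). Without CD11c+ control library 2 this log2 fold change was 3.13 ± 0.56 (adjusted p = 0.000257). Its log2 difference of -1.23 ± 0.49 between CD11c+ and CD11c- macrophages did not pass (adjusted p = 0.13) but did without CD11c+ control library 2 (-1.90 ± 0.55, adjusted p = 0.0272).

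Stab1, like Gas6, was lower in CD11c+ macrophages than in either other subset. Stabilin-1 is a scavenger receptor of resident macrophages and sinusoidal endothelium; its gene (ENSMUSG00000042286.13) lies at chr14:31139013-31168641. Stab1 was at 2280, 1830 and 2470 CPM in LYVE1+, at 1390, 1010 and 1540 CPM in CD11c- and at 83.8, 287 and 149 CPM in CD11c+ control libraries. The subsets did not overlap. It was 12.6-fold higher in LYVE1+ than in CD11c+ macrophages (log2 fold change 3.66 ± 0.45, adjusted p = 0.000101) and 7.56-fold higher in CD11c- than in CD11c+ macrophages (adjusted p = 0.00105). Without CD11c+ control library 2 these log2 differences (LYVE1+ against CD11c+, and CD11c+ against CD11c-) were 4.24 and -3.50, with adjusted p = 5.77e-06 and 5.36e-05.

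Lrp1 set LYVE1+ macrophages apart from both MHCII+ subsets. LRP1 is a large endocytic receptor; its gene (ENSMUSG00000040249.15) lies at chr10:127538161-127621148. Lrp1 was at 3780, 3360 and 4410 CPM in LYVE1+, at 1750, 2390 and 1470 CPM in CD11c- and at 1930, 1950 and 1670 CPM in CD11c+ control libraries. The LYVE1+ libraries lay above the rest, and the MHCII+ subsets overlapped. Lrp1 was 2.09-fold higher than in CD11c+ macrophages (adjusted p = 0.00504) and 2.06-fold higher than in CD11c- macrophages (log2 fold change 1.04 ± 0.25, adjusted p = 0.0346). The latter call ended without CD11c- control library 1 or 3 or any 1 of the LYVE1+ controls (adjusted p = 0.0679 to 0.203). Between the MHCII+ subsets the log2 difference was -0.02 ± 0.24 (95% interval -0.55 to 0.51).

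Cd36 was spread widely over the CD11c+ control libraries, and its call differed between tests. CD36 is a scavenger receptor and fatty acid transporter; its gene (ENSMUSG00000002944.15) lies at chr5:17781690-17888801. Cd36 was at 821, 862 and 914 CPM in LYVE1+, at 511, 877 and 605 CPM in CD11c- and at 148, 770 and 267 CPM in CD11c+ control libraries. The value of 770 CPM is from library 2, the one with Vsig4 and Lyve1 reads. With it, Cd36 did not pass between LYVE1+ and CD11c+ macrophages (log2 fold change 1.13 ± 0.44, adjusted p = 0.113), although DESeq2 and limma voom with quality weights called it with all libraries (adjusted p = 0.0177 and 0.00555). Without it, the difference was 2.06 ± 0.24 (adjusted p = 1.1e-06), and that of CD11c+ against CD11c- macrophages went from -0.75 ± 0.44 (adjusted p = 0.369) to -1.68 ± 0.24 (adjusted p = 3.26e-05).

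Within the MHCII+ groups Itgav was highest in the library with the most Vsig4, except in CD11c+ macrophages after IC. It encodes the αv integrin subunit that pairs with β3 or β5 to bind MFG-E8; its gene (ENSMUSG00000027087.11) lies at chr2:83724397-83806916. Itgav was at 323, 342 and 403 CPM in LYVE1+, at 56.7, 247 and 76.2 CPM in CD11c- and at 103, 214 and 64.3 CPM in CD11c+ control libraries. The 2 high values of the MHCII+ subsets belong to the control libraries named above for Vsig4. After IC, Itgav was at 264, 324 and 430 CPM, at 212, 110 and 24.5 CPM and at 145 and 154 CPM in the same order of subsets. The value of 212 CPM is again from the library with the most Vsig4 of its group.

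With all libraries, Itgav passed no test between subsets (LYVE1+ against CD11c-, log2 fold change 1.49 ± 0.72, adjusted p = 0.531). Without the 3 libraries that stood apart, it was higher in LYVE1+ than in CD11c- macrophages (2.39 ± 0.49, adjusted p = 0.0134) and than in CD11c+ macrophages (2.03 ± 0.48, adjusted p = 0.0106). Of the partner subunits, Itgb5 was at 710 ± 34.0 CPM in LYVE1+ control macrophages (SD, n = 3) against 137 ± 139 and 58.3 ± 76.7 CPM in the CD11c- and CD11c+ controls. Itgb3 was at most at 18.4 CPM in any library. The part of the 3 libraries in the Itgav values was not tested beyond leaving them out.

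**Figure D2:**
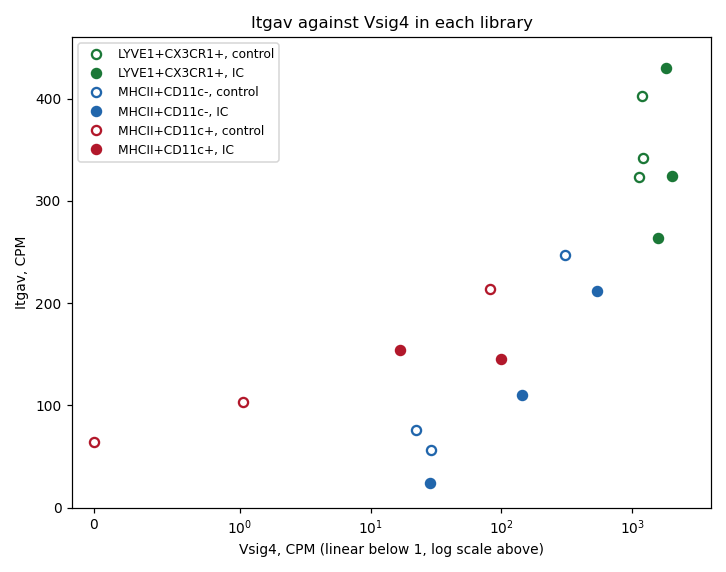
Itgav in CPM (vertical axis) against Vsig4 in CPM (horizontal axis, linear below 1 and logarithmic above), 1 point per library, coloured by subset, open for control and filled for IC. The 3 MHCII+ libraries with Itgav above 200 CPM are those named for Vsig4 at 81.2, 306 and 541 CPM.

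In all, 6 of 9 members were higher and 1, Axl, was lower in LYVE1+ than in CD11c+ control macrophages, where 7.83% and 7.4% of all genes tested were called in these directions. In CD11c+ against CD11c- macrophages, 4 of 9 were lower, Mertk, Gas6, Pros1 and Stab1, where 4.99% of all genes were. In LYVE1+ against CD11c- macrophages, 1 of 9, Lrp1, was higher, where 0.34% of all genes were. The log2 differences of Pros1, Mfge8, Stab1 and Cd36 in this last comparison were 0.53 ± 0.19, 1.23 ± 0.46, 0.74 ± 0.41 and 0.38 ± 0.43 (adjusted p = 0.213, 0.269, 0.641 and 0.943), and that of Axl was -0.36 ± 0.20 (adjusted p = 0.588). Median log2 fold changes of the members were 1.48, -0.77 and 0.68 in these 3 comparisons, beside 0.052, -0.034 and -0.004 over all genes tested. The controls are shared between the comparisons.

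**Figure D3:**
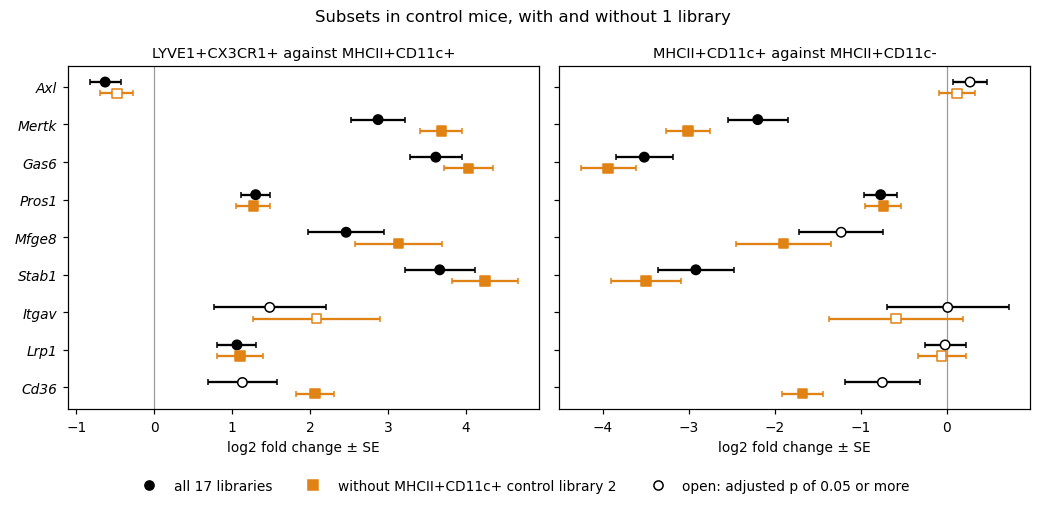
Log2 fold change with its standard error (horizontal axis) of each gene (vertical axis) between subsets of control mice, with all 17 libraries (circles) and without CD11c+ control library 2 (squares); open symbols have an adjusted p of 0.05 or more. Cd36 moves from 1.13 to 2.06 in the left panel and from -0.75 to -1.68 in the right panel.

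Against the other subsets, the summed dendritic cell markers were higher and the summed monocyte markers lower in the CD11c+ control libraries. The 6 dendritic cell markers summed to 119 to 244 CPM there, against 24.6 to 91.6 CPM in CD11c- and 11.4 to 14.9 CPM in LYVE1+ controls. The 7 neutrophil markers summed to 81.7 to 445, 41.1 to 301 and 30.8 to 40 CPM in the same order. The 5 monocyte markers summed to 1000 to 1880, 2230 to 4170 and 3290 to 4440 CPM. Ly6c2, one of these 5, had no counts in the LYVE1+ controls, where the sum was highest, so this sum is not a measure of monocytes. The 8 endothelial markers summed to 15.9 to 63.7, 28.1 to 32.0 and 9.61 to 14.1 CPM. The 10 fibroblast markers summed to 10.6 to 227, 69.3 to 150 and 73.7 to 104 CPM. The neutrophil, endothelial and fibroblast sums of CD11c+ and CD11c- controls overlapped. The part of these cells in the differences between subsets was not tested.

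Per kilobase of exon, Gas6, Cd36, Lrp1 and Stab1 led in LYVE1+ control macrophages, at 314 ± 53.5, 241 ± 13, 218 ± 29.9 and 213 ± 31.5 CPM per kb (SD, n = 3). At most 1.01% of the 14927 genes tested that had an exon length stood above any of these 4. In CD11c+ controls, Cd36 and Lrp1 led by mean, at 110 ± 92.0 and 104 ± 8.89 CPM per kb. Cd36 stood above Lrp1 only in library 2, at 215 CPM per kb. In libraries 1 and 3 it was at 41.2 and 74.3, against Lrp1 at 109 and 94.0 CPM per kb. Axl, at 31.9 ± 5.68 CPM per kb, stood above Gas6, Stab1 and Mertk, at 25.6 ± 11.1, 16.9 ± 10.1 and 6.98 ± 5.08 CPM per kb. The levels of Gas6 and Axl there were within the spread of their libraries.

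**Figure D4:**
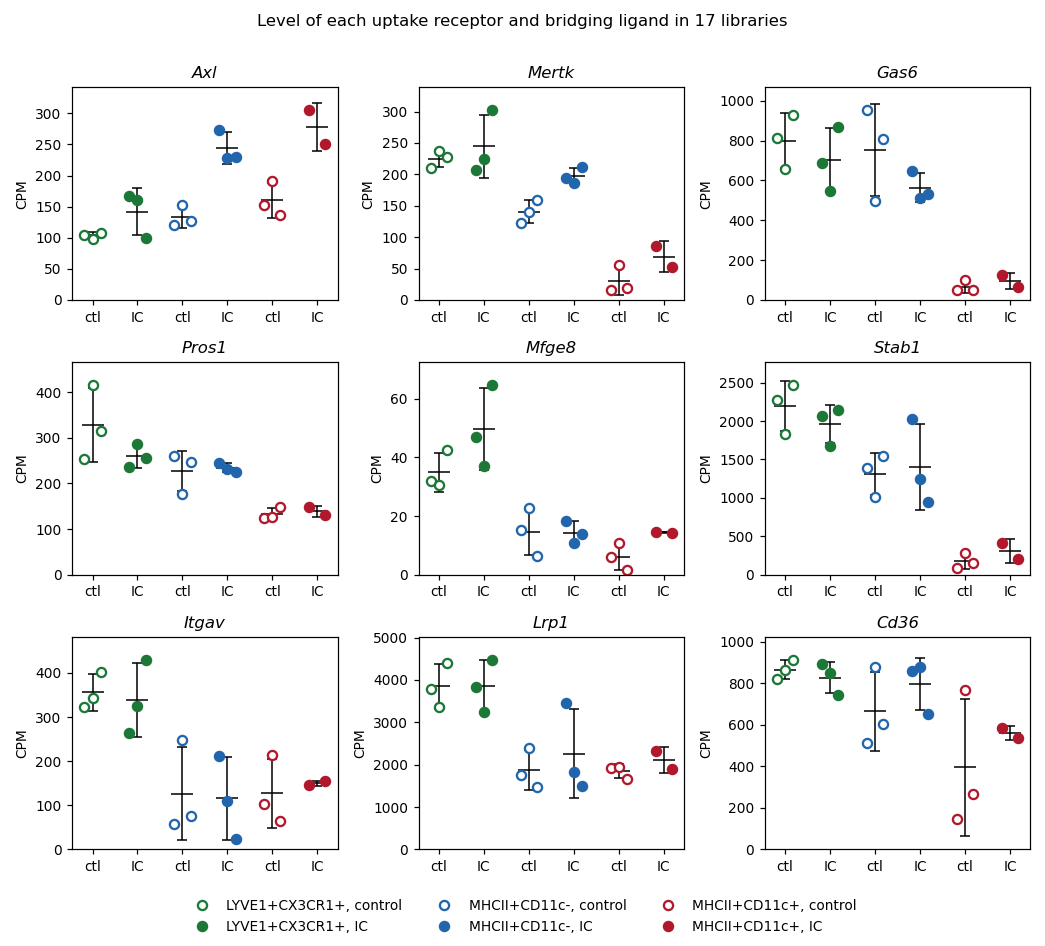
CPM (vertical axis, from 0) of each gene in the 17 libraries, by subset (colour) and condition (open for control, labelled ctl, and filled for IC); bars give the mean and SD of 2 or 3 libraries. Gas6, Stab1 and Mertk are lowest in the CD11c+ groups, and Axl is highest in the MHCII+ groups after IC.

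The response to IC asks whether the uptake genes of each subset changed 8 h after complexes entered the circulation. Axl was higher after IC in CD11c- macrophages, and no other member passed in any subset. In CD11c- macrophages, Axl rose from 120, 153 and 127 CPM to 274, 229 and 230 CPM. The libraries did not overlap, and the fold was 1.83 (log2 fold change 0.87 ± 0.20, adjusted p = 0.0329). This was 1 of 9 members, where 0.543% of all genes were called higher. The call ended without CD11c- control library 1 or 3 or any 1 of the IC libraries, with log2 fold changes of 0.78 to 0.92 and adjusted p = 0.0771 to 0.179.

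In CD11c+ macrophages, Axl was at 305 and 251 CPM after IC and at 152, 192 and 137 CPM in controls. The libraries did not overlap here either, but the log2 fold change of 0.79 ± 0.22 did not pass (adjusted p = 0.227). In LYVE1+ macrophages, Axl was at 167, 160 and 99.6 CPM after IC, and the lowest lay within the control range of 98.4 to 108 CPM (0.46 ± 0.20, adjusted p = 0.281). The mean of the 3 estimates was a log2 fold change of 0.71 ± 0.12 (adjusted p = 0.000931, where 1.7% of all genes were called higher). This mean was taken because the 3 estimates had been seen to be positive, so it restates them and is no further support.

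Mertk after IC was at 86.1 and 52 CPM in CD11c+ macrophages, at 194, 187 and 212 CPM in CD11c- macrophages and at 207, 224 and 302 CPM in LYVE1+ macrophages. In CD11c+ macrophages the range overlapped with control library 2 at 55.5 CPM, while the other controls were at 15.5 and 19.7 CPM. The log2 fold change there was 1.17 ± 0.37 (adjusted p = 0.465) with all libraries and 1.99 ± 0.26 (adjusted p = 0.000116) without control library 2, which leaves 2 libraries in each group. It was 0.76 without IC library 1, which leaves 1 IC library, and 0.85 without control library 1 (adjusted p = 0.721). In CD11c- macrophages the IC libraries lay above the controls, at a log2 fold change of 0.49 ± 0.33 (adjusted p = 0.71). In LYVE1+ macrophages it was 0.12 ± 0.32 (adjusted p = 0.933).

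Cd36 in CD11c+ macrophages also moved with the library left out. It was at 584 and 536 CPM after IC, between the control values of 148 and 267 CPM on one side and 770 CPM on the other. The log2 fold change went from 0.50 ± 0.48 (adjusted p = 1) to 1.44 ± 0.25 (adjusted p = 0.00282) without control library 2, and to 0.11 without control library 1 (adjusted p = 1). Stab1 was at 414 and 201 CPM after IC in this subset (0.83 ± 0.45, adjusted p = 1, and 1.41 ± 0.39, adjusted p = 0.186, without control library 2), and its log2 fold change was 0.21 without IC library 1 (adjusted p = 1). The 6 LYVE1-side markers, Lyve1 and Vsig4 among them, summed to 574 and 281 CPM in IC libraries 1 and 2 and to 100, 632 and 64.3 CPM in control libraries 1 to 3. Vsig4 was at 99.9 and 16.7 CPM in the IC libraries, and at 81.2 CPM in control library 2. Leaving out control library 2 therefore removes the control highest in these markers and keeps the IC library highest in them. The part of such cells in the higher Mertk, Cd36 and Stab1 was not tested.

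The bridging ligands passed no test after IC. Gas6 was at 689, 546 and 869 CPM in LYVE1+, at 648, 512 and 530 CPM in CD11c- and at 125 and 66.3 CPM in CD11c+ macrophages, each range overlapping its controls. Its log2 fold changes were -0.19 ± 0.30, -0.42 ± 0.30 and 0.55 ± 0.33. Pros1 was at 237, 286 and 256 CPM, at 245, 232 and 226 CPM and at 148 and 131 CPM after IC in the same order. Its intervals were -0.76 to 0.08, -0.38 to 0.46 and -0.39 to 0.53, so a change of more than 2-fold was outside all 3. Mfge8 was at 47.1, 37.1 and 64.7 CPM, at 18.4, 10.7 and 13.8 CPM and at 14.5 and 14.3 CPM. The CD11c+ values of Mfge8 lay above the controls at 1.51 to 10.8 CPM, at a log2 fold change of 1.18 ± 0.53 (adjusted p = 0.887).

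Of the other receptors after IC, Stab1 was at 2060, 1680 and 2150 CPM in LYVE1+ and at 2030, 1240 and 943 CPM in CD11c- macrophages. Lrp1 was at 3840, 3250 and 4480 CPM, at 3460, 1830 and 1490 CPM and at 2330 and 1900 CPM in the 3 subsets. The high CD11c- value of both genes is from library 1, the one with Vsig4 at 541 CPM. Lrp1 in LYVE1+ macrophages had a log2 fold change of 0.00 ± 0.24 (95% interval -0.53 to 0.53). Cd36 was at 891, 849 and 744 CPM in LYVE1+ and at 859, 880 and 653 CPM in CD11c- macrophages, with log2 fold changes of -0.06 ± 0.43 and 0.26 ± 0.43. Those of Itgav were -0.07 ± 0.70, -0.13 ± 0.71 and 0.22 ± 0.79 in the 3 subsets, with the widest intervals of the 9 members.

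**Figure D5:**
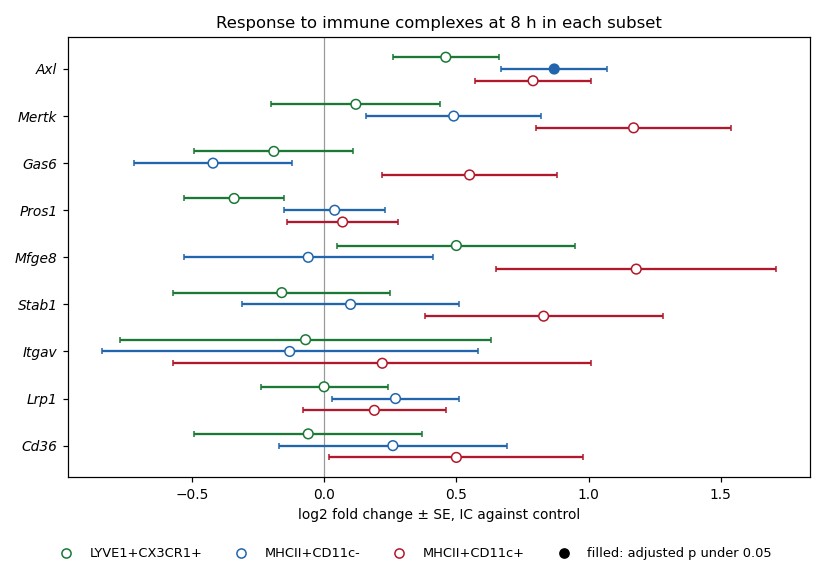
Log2 fold change of IC against control with its standard error (horizontal axis) of each gene (vertical axis) in the 3 subsets (colour); filled points have an adjusted p under 0.05. The filled point is Axl in CD11c- macrophages at 0.87, and the estimates of Axl lie between 0.46 and 0.87.

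Thus 0 of 9 members passed in LYVE1+ macrophages (0.963% of all genes in either direction) and 0 of 9 in CD11c+ macrophages (0.216%) by edgeR. At an unadjusted p under 0.05 there were 1 (Axl) and 3 members (Axl, Mertk and Mfge8), and 1 in CD11c- macrophages. Of all 15272 genes tested, 2159, 795 and 1526 had such a p in LYVE1+, CD11c+ and CD11c- macrophages. DESeq2 called 0 members in LYVE1+ and in CD11c+ macrophages, whereas limma voom with quality weights called Axl and Mertk in CD11c+ macrophages (adjusted p = 0.0245 and 0.0438). The numbers of members with a positive estimate were 4, 6 and 9 in LYVE1+, CD11c- and CD11c+ macrophages, and the median log2 fold changes were -0.06, 0.10 and 0.55. Those of all genes tested were -0.137, -0.03 and 0.015. In the IC libraries the 7 neutrophil markers summed to 7.24 to 32.8, 62.7 to 111 and 25.6 to 29.7 CPM, and the 4 mast cell markers in the table reached 41.6 CPM in an CD11c+ library, against at most 3.40 CPM in control libraries. Their part was not tested.

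Whether the response to IC differed between subsets was tested as an interaction. By edgeR, 0 of 9 members passed for LYVE1+ against CD11c- macrophages (0.0262% of all genes), for LYVE1+ against CD11c+ macrophages (0.0327%) and for CD11c+ against CD11c- macrophages (0.0%). At an unadjusted p under 0.05 there were 0, 1 (Mertk) and 1 (Gas6), beside 1152, 1225 and 496 of all 15272 genes. DESeq2 called 0 members in each interaction. The response of Mertk was smaller in LYVE1+ than in CD11c+ macrophages by a log2 difference of -1.05 ± 0.49 (adjusted p = 0.611) with all libraries, and by -1.86 ± 0.33 (adjusted p = 0.00464) without CD11c+ control library 2. For Cd36 these values were -0.57 ± 0.65 (adjusted p = 0.913) and -1.50 ± 0.32 (adjusted p = 0.0299). Without CD11c+ IC library 1 they were -0.61 for Mertk and -0.47 for Cd36 (adjusted p = 1 for both). For Axl, the differences of response were -0.41 ± 0.28, -0.33 ± 0.29 and -0.08 ± 0.29 in the order above (lowest adjusted p = 0.795).

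Over the 17 libraries, the genes with the most similar log2 CPM were described without a test, since the points share subsets and controls. For Mertk they were Mpp1, C1qc and Lyve1 (Pearson r = 0.982, 0.98 and 0.977), for Gas6 they were Serinc3, Tgfbr2 and Stard8 (r = 0.985, 0.984 and 0.984), and for Stab1 they were Abca1, Sorbs3 and Cbr2 (r = 0.983, 0.979 and 0.977). Axl was most like Cd274, Surf4 and Eftud2 (r = 0.923, 0.907 and 0.898), where Cd274 encodes the checkpoint ligand PD-L1. Itgav was most like F11r, Actn1 and Atp2b4 (r = 0.962, 0.959 and 0.955), and Lrp1 was most like Spire1 (r = 0.954). Those of Pros1 were Ssh2, Tut7 and Hip1 (r = 0.927, 0.919 and 0.914), those of Mfge8 were Hes1, Vcan and Syngr1 (r = 0.952, 0.948 and 0.945), and those of Cd36 were Cd63, Chst3 and Emilin1 (r = 0.952, 0.931 and 0.929).

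Among the members themselves, Gas6 and Stab1 (r = 0.974), Mertk and Stab1 (r = 0.958) and Mertk and Gas6 (r = 0.926) were the closest pairs. Itgav and Lrp1 reached 0.874. Axl had a coefficient of at most 0.000487 with every other member, the lowest being -0.514 with Pros1.

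Other genes of the uptake pathway were examined by role, 103 of 113 listed genes being tested. In LYVE1+ against CD11c+ control macrophages, 28 were higher and 15 lower, where 7.83% and 7.4% of all genes were. Among the 24 other uptake receptors tested, 7 were higher and 3 lower, and among the 11 other bridging proteins and opsonins 5 were higher and 3 lower. Of the 21 engulfment genes, 5 were higher and 4 lower, and of the 15 phagosome genes 5 were higher and 1 lower. The 8 brakes and signals on target cells had 0 higher and 2 lower, the 13 genes of lipid sensing and efflux 4 and 2, and the 11 genes of receptor shedding and control 2 and 0.

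The genes of that list with separated libraries and the largest changes were lower in LYVE1+ macrophages. Cd24a, which encodes a surface protein that restrains uptake through Siglec receptors, was at 2.72 ± 2.79 CPM against 200 ± 17.2 CPM in CD11c+ controls (SD, n = 3; adjusted p = 4.08e-08). Gpr132, a receptor for lysophosphatidylcholine, was at 2.86 ± 0.641 against 232 ± 58.9 CPM (adjusted p = 9.68e-09). Thbs1, which encodes the CD36 ligand thrombospondin-1, was at 6.24 ± 2.66 against 148 ± 28.1 CPM (adjusted p = 0.000959), and Siglecg was at 0.198 ± 0.172 against 32.6 ± 11.9 CPM (adjusted p = 2.29e-05).

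In CD11c+ against CD11c- controls, 10 of 103 pathway genes were higher and 19 lower, where 3.67% and 4.99% of all genes were. C4b, a complement opsonin, was at 73.7 ± 13.9 against 1270 ± 371 CPM (adjusted p = 1.77e-05), and Apoe, a lipid carrier, at 615 ± 230 against 8990 ± 5240 CPM (adjusted p = 0.000398). Timd4, a direct phosphatidylserine receptor that also marks LYVE1+ macrophages, was at 11.4 ± 1.42 against 91.5 ± 51.9 CPM (adjusted p = 8.08e-06), and Cd24a was higher, at 200 ± 17.2 against 14.4 ± 5.52 CPM (adjusted p = 9.33e-06). In LYVE1+ against CD11c- macrophages, 2 were higher and 4 lower, where 0.34% and 1.22% of all genes were, the latter again Siglecg, Gpr132, Thbs1 and Cd24a.

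After IC, few of these genes passed. In LYVE1+ macrophages Abcg1, a sterol exporter, rose from 70.9 ± 7.99 to 156 ± 40.2 CPM (SD, n = 3; log2 fold change 1.14 ± 0.20, adjusted p = 0.00671). Cd14, a lipopolysaccharide co-receptor that also binds apoptotic cells, rose from 372 ± 54.5 to 713 ± 72.0 CPM (0.94 ± 0.21, adjusted p = 0.0291). In CD11c+ macrophages Timd4 rose from 11.4 ± 1.42 CPM (n = 3) to 50.4 ± 2.54 CPM (n = 2; log2 fold change 2.15 ± 0.36, adjusted p = 0.0113), with no overlap of libraries. This call ended without IC library 1 and with the groups compared alone, where 0 genes were called in this subset. In CD11c- macrophages Siglecg was lower, at 0.56 ± 0.626 against 9.99 ± 10.6 CPM (adjusted p = 0.0323). The counts were 2 higher of 103 in LYVE1+ (0.151% of all genes), 1 higher in CD11c+ (0.216%) and 1 lower in CD11c- macrophages (0.157%), and 0 of 103 in each interaction.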

How the data were processed

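The deposited values are counts, unnormalized integer read numbers for each gene symbol, from stranded low-input libraries of total RNA. According to the study's methods and the submitters' processing notes, the authors trimmed reads with Trim Galore, aligned them to mm10 with HISAT2 and counted them with featureCounts; versions, annotation and use of the strand were not given in the sources used here, so reads shared with opposite-strand genes (Tmem255b for Gas6, Nt5dc2 for Stab1, Gm13684 for Itgav, 5.9% of its exon bases) could not be separated. Columns of 17 libraries were used, and 1 column matched no sample.

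Members and lists were chosen with earlier results of these data known. In edgeR 4.0.16 (R 4.3.3), genes were filtered with filterByExpr at a minimum count of 10, leaving 15272, scaled by TMM and fitted as 6 group means over all libraries (glmQLFit, robust, 11 residual degrees of freedom). Every adjusted p is from the quasi-likelihood test (glmQLFTest) with Benjamini-Hochberg adjustment over all genes of a contrast, called under 0.05; ± after a log2 fold change is the SE, and 95% intervals are the SE times the t quantile for 11 degrees of freedom. CPM values are scaled by TMM library sizes. Counts per library ranged from 2301913 to 7248939, and precision covers these libraries only.

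Alternatives were median-of-ratios size factors, no filter, DESeq2 1.42.0, limma 3.58.1 (voom with quality weights), the groups compared alone, a replicate block, 1 surrogate variable (sva 3.50.0), a length offset and each library left out. The mean IC response and the fit without 3 libraries were added after seeing the data. Exon lengths and coordinates are from GENCODE M21 on GRCm38, which matched 97.41% of symbols, and upstream sequences are from RefSeq (GRCm38.p6). Named genes were the 9 members, up to 4 called pathway genes without library overlap per contrast, and the 3 most correlated genes of each member (for Lrp1, the others are not reported here); Vsig4, Lyve1, Itgb3 and Itgb5 were chosen after their values were seen.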

Additional observations from a re-analysis of the deposited data

How the results depend on the processing

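Of 81 pairs of a member and a comparison, 13 were called, and 9 of these were called under every alternative run. The other 4 were Lrp1 in LYVE1+ against CD11c- macrophages, Axl in LYVE1+ against CD11c+ macrophages, Pros1 in CD11c+ against CD11c- macrophages and Axl after IC in CD11c- macrophages. The direction of a called member turned under no alternative. For LYVE1+ against CD11c- controls (1 member), the count was 0 without the filter or with the length offset, 2 with the groups compared alone or without the 3 libraries, and 3 by limma voom. After IC it was 0 in place of 1 with the groups compared alone in CD11c- macrophages, and 2 by limma voom and 4 without the 3 libraries in place of 0 in CD11c+ macrophages. The fit without the 3 libraries drops an CD11c+ control with Vsig4 at 81.2 CPM and keeps an IC library of that subset at 99.9 CPM, so its counts for IC in CD11c+ macrophages are no support for a change there. Without the 3 libraries, the interactions of CD11c+ macrophages gave 2 (against LYVE1+) and 1 (against CD11c-) in place of 0; the cause was not tested. Leaving out each library in turn gave 0 to 1 members for LYVE1+ against CD11c- controls, 6 to 7 for LYVE1+ against CD11c+, 3 to 6 for CD11c+ against CD11c-, 0 to 0, 0 to 1 and 0 to 2 for the IC responses of LYVE1+, CD11c- and CD11c+ macrophages, and 0 to 2 for the interaction of LYVE1+ with CD11c+ (0 for the others).

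Pairing was examined in the deviations of each library from the mean log2 CPM of its group, gene by gene, between libraries of different groups. These deviations correlated at 0.001 to 0.286 in same-numbered pairs of a treatment (2 of 16 above 0.1). Differently numbered pairs of a treatment were at -0.15 to 0.067. Within a group the deviations sum to 0, so the 2 ranges are not independent. Of 17 libraries, 12 correlated best, within their treatment, with one of their own number. The highest value, 0.286, joined the 2 control libraries named above for Vsig4. Library 1 of CD11c- after IC, also named for Vsig4, correlated across treatments with these libraries at 0.201 (CD11c+ control 2) and 0.196 (CD11c- control 2). The labels do not say what the numbers share, so a shared origin of same-numbered libraries is possible. The main fit did not pair them. For comparisons of subsets and for interactions, the replicate block joined same-numbered libraries within a treatment. For the IC responses it joined the same number over both treatments, so there it does not model an origin shared within a treatment. Same-numbered libraries of a subset correlated across treatments at -0.153 to 0.082 (8 pairs, 0 above 0.1). With the replicate block, 8 in place of 7 members were called for LYVE1+ against CD11c+ controls (Cd36, adjusted p = 0.0123; 8 also by DESeq2 and limma voom, with Cd36, and with the groups compared alone, with Itgav at adjusted p = 0.0249), and the counts of the other 8 comparisons were equal (4, 1, 0, 1, 0, 0, 0 and 0).

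Over all genes, DESeq2 called 433, 286 and 74 after IC in LYVE1+, CD11c- and CD11c+ macrophages in place of 147, 107 and 33. Leaving out each library in turn gave 43 to 170, 29 to 173 and 0 to 104, the last being 0 without IC library 1, 104 without control library 2 and 4 without control library 1 or 3. With the groups compared alone, the counts were 63, 71 and 0. Depth limits Mfge8 most, with 4 to 305 counts per library.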
